A study of Homo sapiens with 26 samples.

Results

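The genes described here are antisense long noncoding RNA genes, taken as the genes whose symbol ends in -AS1 and whose level reached 1 FPKM in at least 2 of 26 RNA sequencing libraries. FPKM is the number of sequenced fragments of a gene scaled by the length of its transcript and by the mapped fragments of the library, so it sets genes of different length on 1 scale. A symbol ending in -AS1 is carried by 767 of the 63129 genes deposited, of which 155 were listed at 0 in every library, and 198 met the rule. These 198 genes hold 197 symbols, because DHRS4-AS1 stands for a pair of genes with different Ensembl identifiers. The same threshold was met by 19399 genes of the whole table. The levels chose the members, so the levels below are a description. At the edge of the rule the second highest value of MED14-AS1 was 1.01 FPKM and that of CRYM-AS1 was 1.02 FPKM, both inside. ACVR2B-AS1, with a second highest value of 0.999939 FPKM, and LIFR-AS1, with 0.996 FPKM, stayed outside.

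The libraries come from 2 established human cell lines, BRAF-mutant A375 melanoma cells and NOMO-1 acute myeloid leukaemia cells. Each of the 13 groups has 2 libraries. The tolerant cells, called resistant in the sample titles, are clone 1 and clone 4 of A375 and 1 tolerant NOMO-1 population, and each is set beside its parental line. Cells of clone 1, clone 4 and parental A375 were taken untreated at 0 h, or after 6 h in either 1 uM CPI203 or DMSO. Tolerant and parental NOMO-1 cells were taken after 24 h in either 1 uM CPI203 or DMSO. Each tolerant population is a single one, so a difference from the parental cells is that of 1 clone or culture. The treatment text also speaks of 24 h for A375, whereas the titles of these libraries give 6 h, which is used here. For the 4 untreated clone libraries 1 label says parental and the title names the clone, and the title was followed. The labels do not say whether the 2 libraries of a group came from separate cultures, so p-values measure the spread between these libraries, which may be technical.

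An antisense long noncoding RNA is transcribed from the strand opposite to a protein-coding gene, and its symbol is that of the coding gene, called the sense gene here, followed by AS1. Many start next to the promoter of the sense gene and run away from it, others overlap its body or its end, and such RNAs have been described both as regulators of the neighbouring gene and as transcripts with no known role. CPI203 is a small molecule that occupies the bromodomains of the BET proteins, readers of acetylated histones that help RNA polymerase to leave the promoter of active genes.

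Some lineage markers separated the lines and others did not. SOX10, a transcription factor of the melanocyte lineage, lay between 126 and 318 FPKM in A375 and at or below 0.105 FPKM in NOMO-1, and SPI1, a myeloid transcription factor, lay between 33.9 and 189 FPKM in NOMO-1 and at or below 0.135 FPKM in A375. The melanocyte enzyme TYR was listed at 0 in every library, and CD14, a monocyte marker, did not pass 0.723 FPKM in NOMO-1. The melanocyte genes PMEL, MLANA, TYRP1 and DCT did not pass 1.53 FPKM in either line. CD33, a myeloid marker, lay between 0.149 and 35.0 FPKM in A375 and between 29.3 and 76.4 FPKM in NOMO-1, so its ranges overlapped. HEXIM1, an inhibitor of the elongation factor P-TEFb that is often read as a marker of BET inhibition, rose with CPI203 by 1.07 in clone 1, 1.11 in clone 4, 1.58 in parental A375, 1.41 in tolerant NOMO-1 and 1.96 in parental NOMO-1 on the log2(FPKM + 1) scale (SE 0.09 for each). The AS1 genes together took 0.190 to 0.298% of all FPKM in A375 libraries and 0.273 to 0.309% in NOMO-1 libraries. In 3 A375 libraries the values lay far from those of the other replicate, namely replicate 2 of clone 4 with CPI203, replicate 1 of clone 4 with DMSO and replicate 1 of parental cells with DMSO, and counts without them are given beside the results where they moved a count by over 1.5 times or a direction.

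A sense gene, looked for by the exact symbol before -AS1, was found in the table for 194 of the 198 genes. None was found under that symbol for HOXB-AS1, HOXC-AS1, HOXD-AS1 and C17orf76-AS1. GENCODE names the last of these LRRC75A-AS1, and sense genes under other symbols were not looked for. In GENCODE release 29, matched by Ensembl identifier for 192 AS1 genes, the transcript type was antisense for 137, processed transcript for 24, lincRNA for 23, transcribed unitary pseudogene for 4, bidirectional promoter lncRNA for 2 and protein coding for 2. All 188 pairs with both genes matched lay on opposite strands. The start sites lay head to head within 1000 bases of each other in 74 pairs and not in 114. Annotated exons of the pair overlapped in 128 pairs and not in 60. The sources used here do not say whether the libraries kept the strand of the RNA, so reads from overlapping exons of an AS1 gene and its sense gene cannot be told apart, and the number of overlapping exon bases is given for each pair whose sense gene has values here.

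Most AS1 genes were weakly expressed, and the leukaemia line expressed more of them. The mean over libraries reached 1 FPKM for 102 AS1 genes in the 18 A375 libraries and for 138 in the 8 NOMO-1 libraries. The median AS1 gene had a mean of 1.08 FPKM in A375 and 2.23 FPKM in NOMO-1. The mean reached 1 FPKM in both lines for 78 genes, in A375 alone for 24, in NOMO-1 alone for 60 and in neither for 36, which reached 1 FPKM in at least 2 libraries but not on average. The highest level by far was that of C17orf76-AS1, a host of small nucleolar RNAs, with a mean of 620 FPKM in A375 (455 to 859) and 436 FPKM in NOMO-1 (293 to 542). FGD5-AS1 followed in A375 with a mean of 41.3 FPKM, then EPB41L4A-AS1 with 27.1 FPKM, MMP24-AS1, which GENCODE types as protein coding, with 26.3 FPKM and PITPNA-AS1 with 20.0 FPKM. In NOMO-1 the next highest means were those of SETD5-AS1 with 50.4 FPKM, OIP5-AS1 with 50.04 FPKM, DLX6-AS1 with 34.2 FPKM and FGD5-AS1 with 30.1 FPKM. FGD5-AS1 varied little in A375, from 30.5 to 56.3 FPKM, whereas DLX6-AS1 ranged from 0.113 to 135 FPKM within NOMO-1.

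The sense gene was usually the more abundant of a pair. Among 171 pairs with a mean of at least 1 FPKM in either gene, the AS1 gene had the higher mean in 27 pairs in A375 and, among another 171 such pairs, in 33 pairs in NOMO-1. Where both genes reached a mean of 1 FPKM, the median ratio of AS1 to sense FPKM was 0.183 over 82 pairs in A375 and 0.170 over 120 pairs in NOMO-1.

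Changes were tested with limma on log2(FPKM + 1) over all genes that reached 1 FPKM in at least 2 libraries of the line, 16935 in A375, of which 142 are AS1 genes, and 16753 in NOMO-1, of which 163 are AS1 genes. A gene is said to rise or fall where its adjusted p lies below 0.05 over all genes tested, and each change is the difference in log2(FPKM + 1) with its SE. Adding 1 understates the change of genes at low FPKM. The values come from whole cultures, in which fewer cells that make an RNA and less of it per cell cannot be told apart.

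CPI203 lowered more AS1 genes than it raised in each A375 population, and the AS1 genes changed about as often as other genes. In clone 1, 34 of the 142 AS1 genes passed (12 higher, 22 lower), which is 23.9% of them beside 22% of all genes, with 8.41% of all genes higher and 13.6% lower. In clone 4, 32 passed (5 higher, 27 lower), 22.5% beside 23.6% of all genes, with 8.86% of all genes higher and 14.8% lower. In parental A375, 52 passed (12 higher, 40 lower), 36.6% beside 36.4% of all genes, with 15% of all genes higher and 21.4% lower. The median change of the AS1 genes was −0.18 in clone 1, −0.13 in clone 4 and −0.19 in parental A375, beside −0.03, −0.05 and −0.04 over all genes. A gene with a mean of 1 FPKM in 1 of the groups alone can pass the filter through that group, which held for 5 of the calls in clone 1, 3 in clone 4 and 16 in parental cells. Quantile normalization put the share of higher genes among the called AS1 genes at 45.8% in clone 1 and 33.3% in parental cells, against 35.3% and 23.1% without it. The counts rest on few libraries. Leaving out any 1 of the 4 libraries compared put the count in clone 1 at 17 to 19, and leaving out clone 4 CPI203 replicate 1 or clone 4 DMSO replicate 1 put that in clone 4 at 18 and 17. Fitted with the compared libraries alone, 0 AS1 genes passed in limma in clone 4 (48 at an unadjusted p below 0.05 in the fit of all libraries), and without the 3 libraries that stand apart 60 passed in clone 1.

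In NOMO-1 rises outnumbered falls among the AS1 genes that passed, by a margin in parental cells that did not hold under every setting. In tolerant NOMO-1 83 of 163 AS1 genes passed with CPI203 (55 higher, 28 lower), 50.9% beside 39.2% of all genes, of which 18.4% were higher and 20.7% lower. In parental NOMO-1 96 passed (53 higher, 43 lower), 58.9% beside 60% of all genes, of which 27% were higher and 33% lower. Without parental CPI203 replicate 1 the split in parental cells was 36 higher and 37 lower, and with a filter at 5 FPKM 26 higher and 28 lower. The median change of the AS1 genes was 0.10 in tolerant and 0.05 in parental NOMO-1, beside 0.00 and −0.05 over all genes. In 16 and 24 of these calls a mean of 1 FPKM was reached in the higher group alone. Without tolerant CPI203 replicate 2, tolerant DMSO replicate 1 or tolerant DMSO replicate 2 the count in tolerant NOMO-1 was 54, 50 and 47. The lines differ in time as well as in lineage, 6 h against 24 h, so the counts of A375 and NOMO-1 stand side by side and are not compared.

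**Figure D1:**
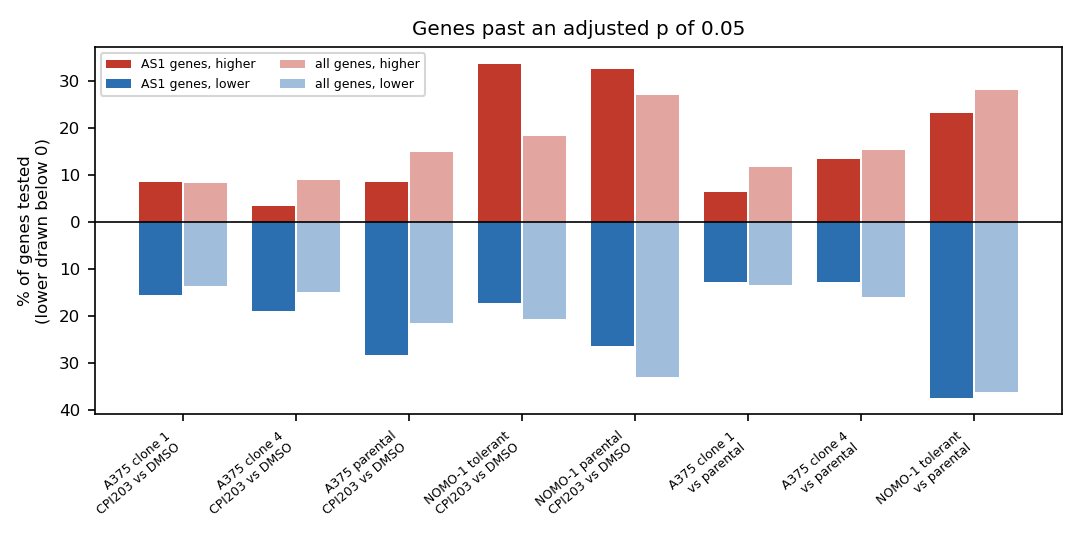
Share of genes that passed an adjusted p of 0.05 in limma, in percent of the genes tested, with genes that were higher drawn above 0 and genes that were lower drawn below it. Dark bars are the AS1 genes (142 in A375, 163 in NOMO-1) and light bars all genes tested. In parental A375 with CPI203 8.45% of the AS1 genes were higher and 28.2% lower, beside 15% and 21.4% of all genes.

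Among other noncoding genes with a call in A375, those with other antisense symbols and the LINC genes mostly fell. Of 15 tested genes with other antisense symbols (ending in -AS or in -AS2 to -AS5), 7 fell with CPI203 in clone 1, 7 in clone 4 and 10 in parental cells, and the others did not pass. These falls are 46.7%, 46.7% and 66.7% of them, beside 13.6%, 14.8% and 21.4% of all genes. Of 74 LINC genes, 6 rose and 20 fell in clone 1, 5 and 22 in clone 4, and 7 and 30 in parental A375. In parental cells these are 9.46% and 40.5%, beside 15% and 21.4% of all genes. The 17 host genes of small RNAs had 1 rise and 0 falls in clone 1, 0 and 4 in clone 4, and 2 and 4 in parental cells (11.8% and 23.5%). Of 5 genes with an intronic symbol (-IT1 or -IT2), 1 rose and 1 fell in parental cells (20% each). Of the 168 tested sense genes of the AS1 genes, 27 rose and 36 fell in parental A375, with a median change of −0.03. These are 16.1% and 21.4%, close to the shares of all genes. With CPI203 in parental NOMO-1, 8 of 15 genes with other antisense symbols rose and 4 fell (53.3% and 26.7%). Of 67 LINC genes 24 rose and 22 fell (35.8% and 32.8%). Of 17 host genes 0 rose and 15 fell (88.2%), beside 27% and 33% of all genes. In tolerant NOMO-1 these were 2 and 1 (13.3% and 6.67%), 18 and 13 (26.9% and 19.4%), and 1 and 5 (5.88% and 29.4%). All genes stood at 18.4% and 20.7% there.

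A small group of AS1 genes changed in 1 direction in all 5 populations. A1BG-AS1, ASB16-AS1, NDUFA6-AS1 and PSMD5-AS1 rose with CPI203 in each of them, and SBF2-AS1, PRKCQ-AS1, PCBP1-AS1 and CD27-AS1 fell in each. Each of these groups of 4 is 3.67% of the 109 AS1 genes tested in both lines, beside 2.87% of all genes that rose and 4.33% that fell in all 5. The 14 AS1 genes that fell in all 3 A375 populations include these 4 and AGAP2-AS1, BOLA3-AS1, LBX2-AS1, PRR7-AS1, RAB30-AS1, RASSF8-AS1, SERTAD4-AS1, TMEM161B-AS1 and VIM-AS1. They are 9.86% of the AS1 genes tested in A375, beside 9.68% of all genes. In both NOMO-1 populations 37 AS1 genes rose and 18 fell, 22.7% and 11% of those tested, beside 12.3% and 14.2% of all genes. When any 1 of the libraries compared was left out, SBF2-AS1, ASB16-AS1 and NDUFA6-AS1 kept their calls in all 5 populations, and BOLA3-AS1, PCBP1-AS1, SERTAD4-AS1 and VIM-AS1 kept theirs in the 3 A375 populations. A1BG-AS1 lost its call in tolerant NOMO-1 without DMSO replicate 2, CD27-AS1 that in clone 4 without CPI203 replicate 1 or DMSO replicate 1, and PCBP1-AS1 that in parental NOMO-1. PRKCQ-AS1, PSMD5-AS1, RAB30-AS1, RASSF8-AS1 and TMEM161B-AS1 lost a call in clone 1, in parental A375 or in both when 1 library was left out.

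**Figure D2:**
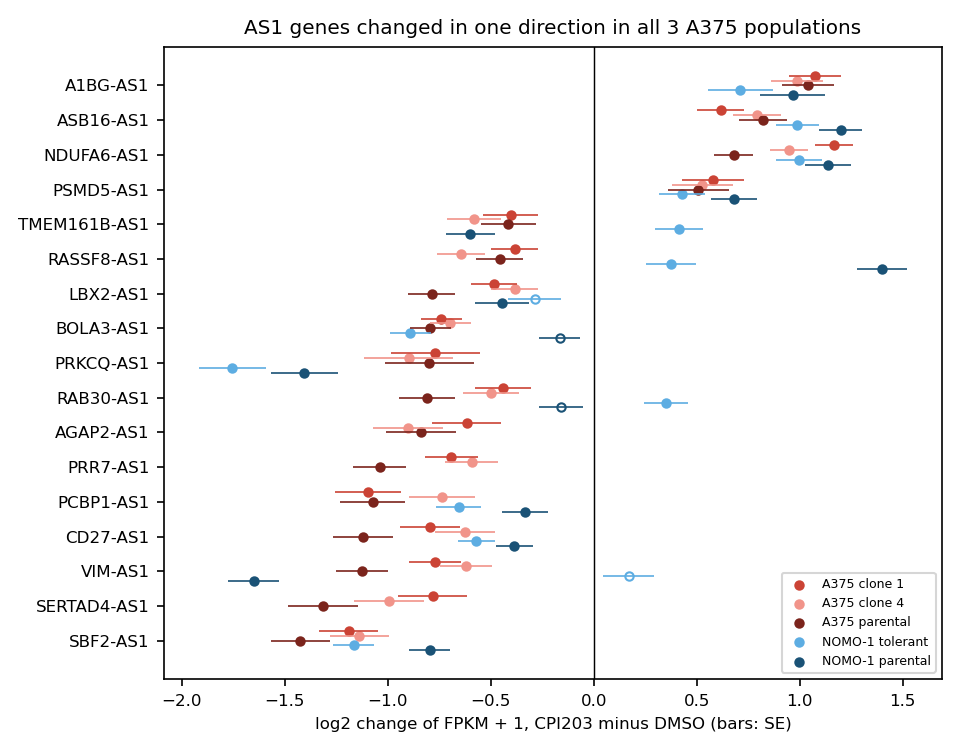
Change with CPI203 for 17 of the 18 AS1 genes that changed in 1 direction in clone 1, clone 4 and parental A375, as the difference in log2(FPKM + 1), CPI203 minus DMSO, with SE as bars and 1 colour for each population. Filled points passed an adjusted p of 0.05 and open points did not. SBF2-AS1 lies between −1.42 and −0.79 in all 5 populations, whereas VIM-AS1 is at −1.65 in parental NOMO-1 and at 0.17 in tolerant NOMO-1.

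SBF2-AS1 (ENSG00000246273, chromosome 11, 9779839 to 9832866, hg19) lies opposite SBF2, which encodes a myotubularin-related protein of membrane traffic, and 1495 exon bases of the pair overlap. The RefSeq window around its start site (GRCh38.p14, chr11:9758043-9758342, plus strand, 250 bases before to 50 after the start) is shown because this gene fell furthest in parental A375. Capitals mark GC boxes, GGGCGG or its reverse complement CCGCCC, the letters bound by SP-family factors.
SBF2-AS1: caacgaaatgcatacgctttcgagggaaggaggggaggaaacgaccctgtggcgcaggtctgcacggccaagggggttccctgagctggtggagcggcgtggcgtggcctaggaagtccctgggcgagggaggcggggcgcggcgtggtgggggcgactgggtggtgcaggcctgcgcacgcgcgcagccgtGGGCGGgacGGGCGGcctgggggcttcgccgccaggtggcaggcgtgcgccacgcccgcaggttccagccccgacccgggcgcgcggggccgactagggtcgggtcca
The start of SBF2-AS1 lies 535926 bases from that of SBF2, so the promoters are separate, and the window holds 36 CpG dinucleotides and 2 GC boxes.

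SBF2-AS1 stood at 2.14 and 1.66 FPKM with CPI203 in clone 1, against 6.15 and 5.07 FPKM with DMSO. In clone 4 it stood at 3.77 and 3.44 FPKM with CPI203, against 9.72 and 8.53 FPKM with DMSO. In parental A375 it stood at 0.776 and 0.952 FPKM with CPI203, against 3.601 and 4.42 FPKM with DMSO. The CPI203 libraries lay below the DMSO libraries in each population, with no overlap. In tolerant NOMO-1 the values were 2.60 and 2.48 FPKM with CPI203, against 7.15 and 6.73 FPKM with DMSO, and in parental NOMO-1 2.46 and 2.70 FPKM with CPI203, against 5.48 and 4.95 FPKM with DMSO. SBF2-AS1 fell by 1.19 ± 0.14 in clone 1 (limma adjusted p = 9.87e-05), 1.14 ± 0.14 in clone 4 (0.000141), 1.42 ± 0.14 in parental A375 (9.84e-06), 1.16 ± 0.10 in tolerant NOMO-1 (3.03e-05) and 0.79 ± 0.10 in parental NOMO-1 (0.000144). The sense gene SBF2 did not follow it. The changes of SBF2 were −0.35, −0.08, −0.33, 0.35 and 0.26 in the same order, of which the rise in tolerant NOMO-1 passed (adjusted p = 0.043). The change of SBF2-AS1 was below that of SBF2 in all 5 populations by a test of the difference within each library, with adjusted p between 6.57e-05 and 0.0363 over all gene pairs tested.

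PCBP1-AS1, CD27-AS1 and PRKCQ-AS1 lie beside genes for an RNA-binding protein, a receptor of the tumour necrosis factor family and protein kinase C theta. PCBP1-AS1 stood at 2.68 and 3.41 FPKM with CPI203 in clone 1, against 7.98 and 7.24 FPKM with DMSO, and at 3.14 and 3.20 FPKM with CPI203 in parental A375, against 7.51 and 8.04 FPKM with DMSO. The groups did not overlap in either. Its changes were −1.09, −0.74 and −1.07 in clone 1, clone 4 and parental A375 and −0.65 and −0.33 in tolerant and parental NOMO-1, whereas those of PCBP1, with 914 overlapping exon bases, were −0.27, −0.46, −0.49, −0.01 and −0.15. CD27-AS1 changed by −0.79, −0.62, −1.12, −0.57 and −0.38 in the same order. PRKCQ-AS1 fell most in the leukaemia line, to 5.94 and 6.27 FPKM with CPI203 in tolerant NOMO-1, against 22.9 and 23.0 FPKM with DMSO, and to 1.49 and 1.47 FPKM in parental NOMO-1, against 6.99 and 4.39 FPKM. These are changes of −1.75 ± 0.16 and −1.404 ± 0.16.

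The 4 AS1 genes that rose in all 5 populations differ in what their sense genes did. A1BG-AS1, opposite the gene of a plasma glycoprotein with 781 overlapping exon bases, stood at 12.4 and 11.5 FPKM with CPI203 in parental A375, against 5.90 and 4.72 FPKM with DMSO, without overlap. It rose by 1.07, 0.99 and 1.04 in clone 1, clone 4 and parental A375 and by 0.71 and 0.97 in tolerant and parental NOMO-1, and A1BG passed in none of them. ASB16-AS1 rose together with ASB16, which encodes an ankyrin repeat protein with a SOCS box: the changes of ASB16-AS1 were 0.62, 0.79, 0.82, 0.99 and 1.20 and those of ASB16 0.44, 0.50, 0.66, 0.67 and 0.98, and all of them passed. The pair shares 766 exon bases. NDUFA6-AS1, head to head with the gene of a subunit of respiratory complex I and with 25 overlapping exon bases, stood at 3.20 and 2.85 FPKM with CPI203 in clone 1, against 0.785 and 0.799 FPKM with DMSO, and rose by 1.17, 0.95, 0.68, 1.00 and 1.14, while NDUFA6 fell by 0.39 in parental NOMO-1. PSMD5-AS1, which GENCODE types as a transcribed unitary pseudogene, rose by 0.58, 0.53, 0.51, 0.43 and 0.68, and PSMD5, the gene of a chaperone of proteasome assembly whose annotated exons do not overlap those of PSMD5-AS1, fell by 0.50 in clone 1 and 0.48 in clone 4.

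Among the AS1 genes that fell in all 3 A375 populations, SERTAD4-AS1 fell together with SERTAD4, by 0.78 and 1.45 in clone 1, 0.99 and 1.39 in clone 4 and 1.31 and 1.87 in parental A375. The pair shares 174 exon bases, and both genes were listed at 0 in every NOMO-1 library. PRR7-AS1 fell by 0.69, 0.59 and 1.04, AGAP2-AS1 by 0.62, 0.90 and 0.84 and LBX2-AS1 by 0.48, 0.38 and 0.79 in clone 1, clone 4 and parental cells, and each of these 3 genes lost a call in a clone when 1 library was left out.

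VIM-AS1 (ENSG00000229124, chromosome 10, 17256238 to 17271984, hg19) runs from the region of VIM, the gene of the intermediate filament protein vimentin, and 641 exon bases of the pair overlap. RefSeq gives a window for VIM-AS1 on the minus strand at chr10:17229936-17230235 and one for VIM on the plus strand at chr10:17227991-17228290, both in GRCh38.p14. They are shown because the 2 genes moved apart, with GC boxes in capitals.
VIM-AS1: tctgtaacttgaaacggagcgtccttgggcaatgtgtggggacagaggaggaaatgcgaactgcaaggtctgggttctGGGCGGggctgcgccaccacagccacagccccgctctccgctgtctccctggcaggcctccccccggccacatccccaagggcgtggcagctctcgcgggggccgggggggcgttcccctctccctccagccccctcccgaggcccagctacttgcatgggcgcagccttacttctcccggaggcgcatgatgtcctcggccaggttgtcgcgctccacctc
VIM: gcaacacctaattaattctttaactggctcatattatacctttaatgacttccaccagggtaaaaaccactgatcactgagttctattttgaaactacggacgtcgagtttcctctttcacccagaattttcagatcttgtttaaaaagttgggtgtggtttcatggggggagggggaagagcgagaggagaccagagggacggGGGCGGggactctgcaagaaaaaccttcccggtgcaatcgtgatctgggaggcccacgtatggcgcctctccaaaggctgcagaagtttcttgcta
Each of the windows holds 1 GC box, and they share no base. A further RefSeq window of VIM-AS1, at chr10:17226849-17227148, is not printed. It starts nearer to VIM, at 1343 bases, and holds no GC box and 7 CpG dinucleotides, against 20 in the printed one.

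VIM-AS1 stood at 1.55 and 1.24 FPKM with CPI203 in clone 1, against 3.20 and 2.96 FPKM with DMSO, at 1.34 and 1.55 FPKM in clone 4, against 3.25 and 2.32 FPKM, and at 1.06 and 1.14 FPKM in parental A375, against 3.63 and 3.53 FPKM. It fell by 0.77, 0.62 and 1.12 ± 0.13 (adjusted p = 2.57e-05 in parental cells). VIM, far more abundant at 1681 to 3485 FPKM over the A375 libraries, rose by 0.36 in clone 1 and did not pass in clone 4 (0.32) or in parental cells (0.28, adjusted p = 0.0776). In parental NOMO-1 VIM-AS1 stood at 2.07 and 1.87 FPKM with CPI203, against 9.46 and 7.30 FPKM with DMSO, and VIM at 789 and 694 FPKM, against 198 and 166 FPKM. VIM-AS1 fell by 1.65 ± 0.12 and VIM rose by 2.02 ± 0.11. In tolerant NOMO-1, by contrast, VIM-AS1 changed by 0.17 ± 0.12 (adjusted p = 0.315) around a low level of 1.06 and 1.05 FPKM with CPI203 and 0.837 and 0.816 FPKM with DMSO, while VIM rose by 2.86 ± 0.11.

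H1FX-AS1 (ENSG00000206417, chromosome 3, 129034235 to 129045068, hg19) lies head to head with H1FX, the gene of a linker histone, with 345 overlapping exon bases, and gave the widest split of any pair in parental A375. H1FX-AS1 stood at 0.140 and 0.288 FPKM with CPI203 in parental A375, against 2.34 and 1.61 FPKM with DMSO, and H1FX at 128 and 144 FPKM, against 61.0 and 62.9 FPKM. Neither gene overlapped between the groups. H1FX-AS1 fell by 1.29 ± 0.16 (adjusted p = 4.47e-05), H1FX rose by 1.12 ± 0.27 (0.00602), and the difference of the pair was −2.41 ± 0.22 (7.92e-06). In clone 1 H1FX-AS1 stood at 0.203 and 0.363 FPKM, against 1.33 and 1.23 FPKM, and fell by 0.83 ± 0.16 while H1FX rose by 1.21. In clone 4 the fall of 0.46 in H1FX-AS1 missed the threshold (adjusted p = 0.052).

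The levels of 6 of these pairs in all 26 libraries show how far the AS1 gene and its sense gene part.

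**Figure D3:**
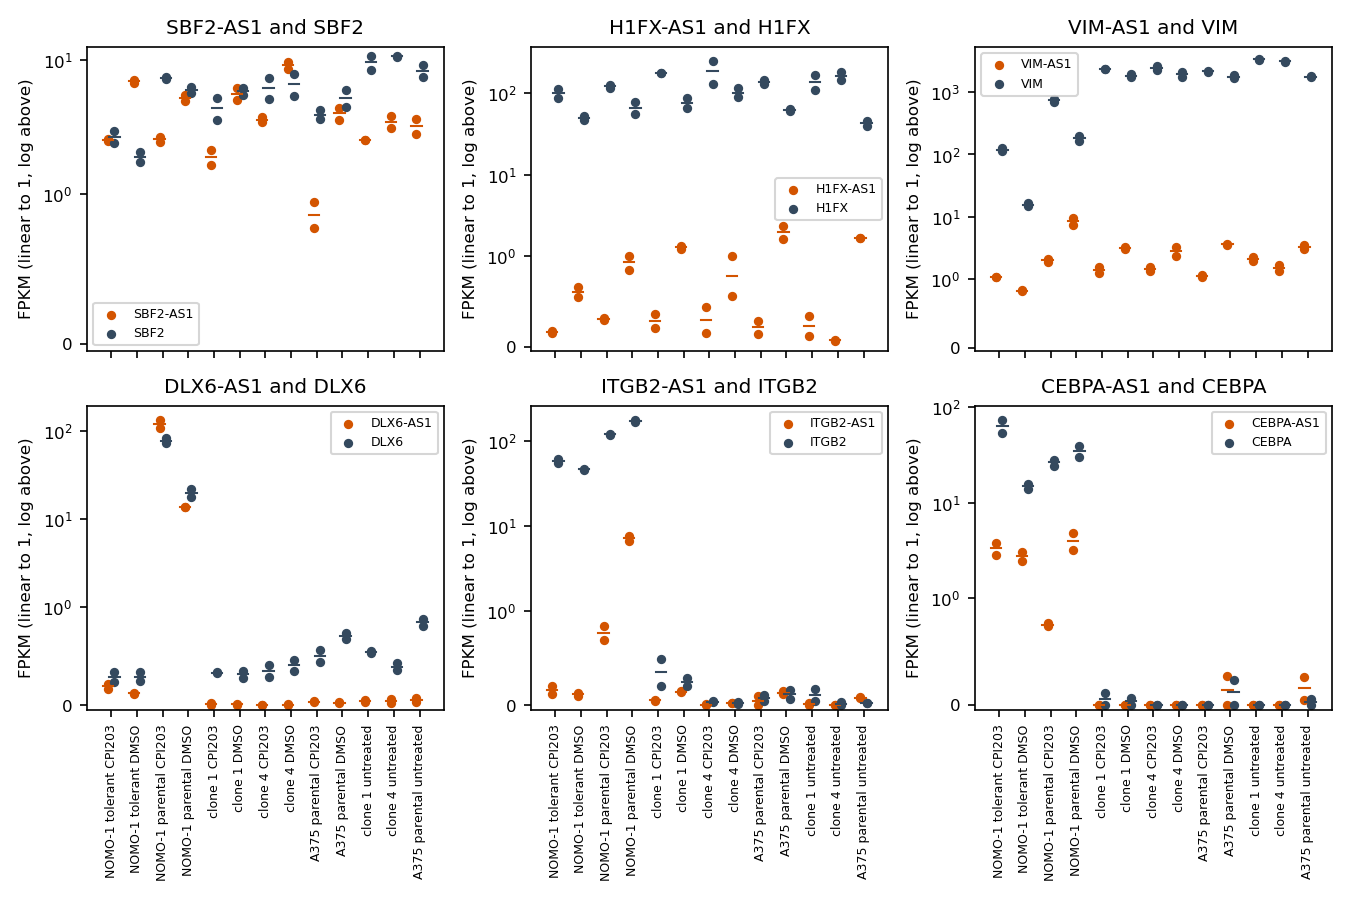
FPKM of 6 AS1 genes (orange) and their sense genes (blue) in each of the 26 libraries, grouped by population and treatment, on an axis that is linear to 1 FPKM and logarithmic above, with a bar at the mean of the 2 libraries of a group. SBF2-AS1 lies lower with CPI203 than with DMSO in all 5 populations, DLX6-AS1 is near 0 in all groups but parental NOMO-1, and VIM-AS1 and VIM move apart.

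DLX6-AS1 (ENSG00000231764, chromosome 7, 96594839 to 96643377, hg19) had the largest rise of any AS1 gene in parental NOMO-1. It lies opposite DLX6, the gene of a homeobox transcription factor, with no overlap of annotated exons, and its mouse counterpart is known as a transcript of an enhancer region of the Dlx genes. Its RefSeq window lies on the minus strand at chr7:97014016-97014315 (GRCh38.p14), 8512 bases from the start of DLX6. It is shown as a contrast to the window of SBF2-AS1, because it holds 3 CpG dinucleotides and no GC box.
DLX6-AS1: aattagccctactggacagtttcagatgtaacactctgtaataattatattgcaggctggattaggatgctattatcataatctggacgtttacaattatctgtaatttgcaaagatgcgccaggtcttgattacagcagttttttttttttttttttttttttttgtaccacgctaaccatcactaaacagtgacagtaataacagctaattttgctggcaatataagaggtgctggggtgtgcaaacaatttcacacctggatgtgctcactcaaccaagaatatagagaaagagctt

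DLX6-AS1 stood at 135 and 110 FPKM with CPI203 in parental NOMO-1, against 13.7 and 13.9 FPKM with DMSO, and rose by 3.05 ± 0.11 (adjusted p = 1.62e-07). DLX6 stood at 83.5 and 73.7 FPKM, against 22.0 and 17.9 FPKM, and rose by 1.93 ± 0.12. In tolerant NOMO-1 DLX6-AS1 was close to 0, at 0.167 and 0.216 FPKM with CPI203 and 0.113 and 0.127 FPKM with DMSO, and in A375 it did not pass 0.0759 FPKM. The effects of CPI203 on DLX6-AS1 differed between tolerant and parental NOMO-1 by −2.96 ± 0.16.

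SAP30L-AS1 and SOCS2-AS1 were also among the largest rises in parental NOMO-1. SOCS2-AS1, beside the gene of a suppressor of cytokine signalling with 277 overlapping exon bases, stood at 15.1 and 12.9 FPKM with CPI203, against 3.82 and 3.77 FPKM with DMSO, and rose by 1.64 ± 0.11, with SOCS2 at 72.2 and 69.9 FPKM, against 42.1 and 39.0 FPKM. In tolerant NOMO-1 SOCS2-AS1 fell to 0.938 and 0.739 FPKM, against 1.47 and 1.37 FPKM with DMSO, a change of −0.40 ± 0.11 that did not pass in 3 of 4 fits without 1 library. INTS6-AS1 rose by 1.31 ± 0.11 in both NOMO-1 populations, to 5.28 and 4.85 FPKM in tolerant cells, against 1.42 and 1.45 FPKM, and passed in no A375 population.

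SAP30L-AS1 starts head to head with SAP30L, the gene of a protein of the Sin3 corepressor complex, with no overlap of annotated exons. The RefSeq windows of the 2 genes (GRCh38.p14, chr5:154445773-154446072 on the minus strand and chr5:154445747-154446046 on the plus strand) have 274 bases in common, and are shown because the genes starting from this stretch moved unequally.
SAP30L-AS1: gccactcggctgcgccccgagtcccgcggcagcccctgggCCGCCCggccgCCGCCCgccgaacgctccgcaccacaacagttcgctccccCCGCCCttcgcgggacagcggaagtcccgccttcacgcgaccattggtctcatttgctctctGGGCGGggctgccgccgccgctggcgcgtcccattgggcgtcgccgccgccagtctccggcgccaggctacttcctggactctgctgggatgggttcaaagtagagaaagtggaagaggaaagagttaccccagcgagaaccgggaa
SAP30L: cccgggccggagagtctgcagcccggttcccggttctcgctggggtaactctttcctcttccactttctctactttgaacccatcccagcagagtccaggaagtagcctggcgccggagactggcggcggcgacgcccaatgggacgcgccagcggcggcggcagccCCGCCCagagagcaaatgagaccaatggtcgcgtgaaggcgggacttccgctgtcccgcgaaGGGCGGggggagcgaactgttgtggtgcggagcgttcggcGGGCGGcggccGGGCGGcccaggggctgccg
Each window holds 4 GC boxes, in capitals. SAP30L-AS1 stood at 3.43 and 4.29 FPKM with CPI203 in parental NOMO-1, against 0.433 and 0.636 FPKM with DMSO, and rose by 1.66 ± 0.18. SAP30L stood at 24.2 and 19.9 FPKM, against 18.1 and 14.9 FPKM, and rose by 0.40, and the difference between the pair's changes passed at an adjusted p of 0.00163. In tolerant NOMO-1 SAP30L-AS1 stood at 1.20 and 2.17 FPKM, against 0.727 and 0.925 FPKM, a rise of 0.53 ± 0.18 beside 0.44 for SAP30L. The call of SAP30L-AS1 in tolerant cells was lost in 3 of 4 fits without 1 library.

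The largest falls in parental NOMO-1 were those of ITGB2-AS1, BZRAP1-AS1 and EPHA1-AS1. ITGB2-AS1 (chromosome 21, 46340966 to 46349593, hg19), beside the gene of the beta 2 integrin of leukocytes with 303 overlapping exon bases, stood at 0.838 and 0.690 FPKM with CPI203, against 7.68 and 6.71 FPKM with DMSO, and fell by 2.21 ± 0.10, whereas ITGB2 at 118 and 121 FPKM, against 177 and 169 FPKM, fell by 0.53. ITGB2-AS1 reached 1 FPKM in the 2 parental DMSO libraries alone and so passed the filter through the group in which it is high. BZRAP1-AS1 stood at 7.63 and 6.35 FPKM, against 27.7 and 28.2 FPKM, and fell by 1.86 ± 0.10, whereas BZRAP1, with 252 overlapping exon bases, rose by 0.44. EPHA1-AS1 and EPHA1, the gene of an ephrin receptor, fell together by 1.80 ± 0.14 and 1.37, with no overlap of annotated exons. CEBPA-AS1, head to head with the gene of the myeloid transcription factor C/EBP alpha and with no overlap of annotated exons, stood at 0.765 and 0.740 FPKM, against 4.82 and 3.22 FPKM, and fell by 1.4997 ± 0.17, while CEBPA changed by −0.37 (adjusted p = 0.0843). In tolerant NOMO-1 the pair behaved otherwise: CEBPA-AS1 changed by 0.21 ± 0.17 and CEBPA rose by 2.02, to 73.7 and 53.8 FPKM with CPI203, against 15.8 and 13.9 FPKM with DMSO.

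Across all pairs, the change of an AS1 gene was only weakly related to that of its sense gene. The AS1 gene is usually the less abundant of a pair, and adding 1 understates its change more. The relation and the differences between the 2 changes carry this limit. In clone 1 both genes passed with CPI203 in 9 of 128 pairs, 5 in the same direction and 4 in opposite directions, in clone 4 in 11 pairs (8 and 3), and in parental A375 in 20 pairs (14 and 6). In tolerant NOMO-1 both passed in 36 of 144 pairs, 26 in the same direction and 10 in opposite ones, and in parental NOMO-1 in 49 pairs (30 and 19). The same-direction share among pairs of neighbouring genes with both called, over the whole genome, was 64.4, 64.8, 61.2, 60.0 and 58.5% in clone 1, clone 4, parental A375, tolerant and parental NOMO-1. Here and below the set of all neighbouring pairs includes the AS1 pairs, also those whose genes are not adjacent. In parental A375 all 6 opposite pairs had the AS1 gene lower: BAIAP2-AS1 (−0.60 beside 1.05 for BAIAP2), DLGAP1-AS1 (−0.62 beside 0.76 for DLGAP1), H1FX-AS1, PITPNA-AS1 (−0.48 beside 0.55 for PITPNA), RAB30-AS1 (−0.81 beside 0.73 for RAB30) and ZBED5-AS1 (−0.44 beside 0.35 for ZBED5). BAIAP2-AS1, DLGAP1-AS1 and RAB30-AS1 share no annotated exon base with their sense genes, PITPNA-AS1 shares 379 and ZBED5-AS1 538. The calls of DLGAP1-AS1, PITPNA-AS1 and ZBED5-AS1 were each lost in at least 2 fits without 1 library.

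Tested within libraries, the changes of the 2 genes differed in 30 of 128 pairs in clone 1 (23.4% beside 24.1% of all neighbouring pairs), 24 in clone 4 (18.8% beside 24.5%) and 41 in parental A375 (32.0% beside 38.3%). In tolerant NOMO-1 they differed in 62 of 144 pairs (43.1% beside 43.3%) and in parental NOMO-1 in 87 (60.4% beside 60.8%). Leaving out 1 library put these counts at 11 to 14 in clone 1, at 11 in clone 4 without CPI203 replicate 1, at 27 in parental A375 without CPI203 replicate 1 and at 38 in tolerant NOMO-1 without DMSO replicate 2. Without the 3 libraries that stand apart it was 50 in clone 1. Spearman's rank correlation between the 2 changes was 0.23 over the 128 AS1 pairs of parental A375, beside 0.10 over all 16920 pairs. In parental NOMO-1 it was 0.18 over the 144 AS1 pairs, beside 0.12 over all pairs. In each line the set of all pairs includes the AS1 pairs. The genes of a pair share their libraries, and pairs are not independent replicates. Split by arrangement, the correlation over the 86 A375 pairs with overlapping exons was 0.30 in clone 1, 0.31 in clone 4 and 0.32 in parental cells, and over the 38 pairs without it was −0.20, −0.07 and 0.08. In NOMO-1 it was 0.23 in tolerant and 0.09 in parental cells over the 91 pairs with overlapping exons, and 0.33 and 0.32 over the 48 pairs without. Over the 54 head to head pairs of A375 it was 0.02, 0.05 and 0.05 in clone 1, clone 4 and parental cells. Over the 70 pairs not head to head it was 0.15, 0.29 and 0.36. In tolerant and parental NOMO-1 it was 0.14 and 0.16 over 64 head to head pairs, and 0.34 and 0.21 over 75 pairs not head to head. No difference between these correlations was tested.

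**Figure D4:**
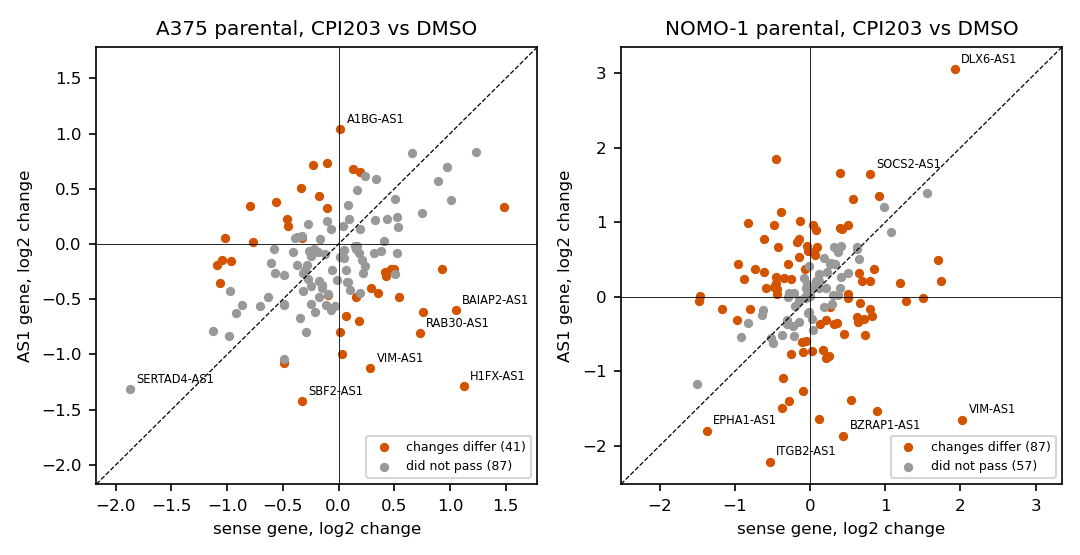
Change with CPI203 of each AS1 gene (vertical axis) against that of its sense gene (horizontal axis), as differences in log2(FPKM + 1), in parental A375 (left, 128 pairs) and parental NOMO-1 (right, 144 pairs). Orange pairs are those whose changes differed at an adjusted p of 0.05 (41 and 87), and the dashed line marks equal changes. H1FX-AS1 and VIM-AS1 lie at the lower right, where the AS1 gene fell and the sense gene was higher.

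Several pairs passed in opposite directions in NOMO-1. In both NOMO-1 populations COX10-AS1, head to head with the gene of an enzyme of heme A synthesis and with no overlap of annotated exons, rose while COX10 fell: in tolerant cells COX10-AS1 stood at 12.3 and 12.4 FPKM with CPI203, against 6.66 and 6.09 FPKM, and COX10 at 10.7 and 10.4 FPKM, against 14.03 and 13.7 FPKM. The changes of COX10-AS1 and COX10 were 0.86 and −0.36 in tolerant and 0.77 and −0.61 in parental NOMO-1. IDH1-AS1 and IDH1, the gene of an isocitrate dehydrogenase, share 94 exon bases and changed by 0.59 and −0.38 in tolerant and by 0.67 and −0.43 in parental cells, and BZRAP1-AS1 fell by 0.57 in tolerant cells while BZRAP1 rose by 0.50. In parental NOMO-1 NOP14-AS1 rose by 0.44 while NOP14, a factor of ribosome assembly, fell by 0.95, and the pair shares 605 exon bases. VPS9D1-AS1 fell by 1.53 while VPS9D1 rose by 0.88, to 7.94 and 6.68 FPKM, against 3.46 and 3.52 FPKM, with 518 overlapping exon bases. PXN-AS1 fell by 1.39 while PXN, the gene of the focal adhesion protein paxillin, rose by 0.54, with 918 overlapping exon bases.

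A group of 10 AS1 genes passed with CPI203 in opposite directions in different populations, among them PAN3-AS1, RAB30-AS1, RASSF8-AS1, SOCS2-AS1, TAPT1-AS1, TMEM161B-AS1, TPT1-AS1, UBAC2-AS1 and ZBED5-AS1. Of the 109 AS1 genes tested in both lines 9 did so, 8.26%, beside 6.8% of all genes. RASSF8-AS1 fell by 0.38, 0.64 and 0.46 in clone 1, clone 4 and parental A375 and rose by 0.38 in tolerant and 1.398 in parental NOMO-1, where it stood at 4.34 and 3.45 FPKM with CPI203, against 0.834 and 0.865 FPKM with DMSO. TPT1-AS1 stood at 3.62 and 3.34 FPKM with CPI203 in parental A375, against 6.85 and 5.73 FPKM, and fell by 0.70 ± 0.13. In tolerant NOMO-1 it stood at 7.09 and 7.27 FPKM, against 4.82 and 5.15 FPKM, and rose by 0.45 ± 0.11. Of the NOMO-1 calls of these 10 genes, those of TPT1-AS1 were lost in both populations in a fit without 1 library.

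Tolerant cells in DMSO differed from parental cells in DMSO in AS1 genes. Whether the tolerant cells had been kept in CPI203 before was not found in the labels used here. With DMSO, 27 of 142 AS1 genes differed between clone 1 and parental A375 (9 higher, 18 lower; 19.0% beside 25.2% of all genes, 11.7% higher and 13.5% lower) and 37 between clone 4 and parental A375 (19 higher, 18 lower; 26.1% beside 31.4%, 15.4% higher and 16% lower). The 2 comparisons share the parental libraries. In 7 and 11 of them a mean of 1 FPKM was reached in the higher group alone. With the compared libraries alone 11 and 7 AS1 genes passed, without clone 1 DMSO replicate 2 16 passed in clone 1, and the share of higher ones in clone 4 moved to 38.3%, against 51.4%, after correction for length and GC content. The split in clone 4 was 7 higher and 18 lower without clone 4 DMSO replicate 1, and 11 higher and 19 lower without the 3 libraries that stand apart.

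HPN-AS1, TRHDE-AS1 and ARHGAP5-AS1 stood out in both clones. TRHDE-AS1, beside the gene of the enzyme that degrades thyrotropin-releasing hormone, stood at 6.23 and 8.39 FPKM in clone 1 and 8.29 and 9.92 FPKM in clone 4 with DMSO, against 0.967 and 1.34 FPKM in parental A375. It was higher by 1.94 ± 0.17 in clone 1 and 2.23 ± 0.17 in clone 4, and TRHDE, with 793 overlapping exon bases, was higher by 1.92 and 1.85. HPN-AS1, beside the gene of the serine protease hepsin, stood at 1.47 and 1.00 FPKM in clone 1 and 1.24 and 1.04 FPKM in clone 4, against 8.32 and 7.54 FPKM in parental cells, and was lower by changes of −2.004 ± 0.15 and −2.06 ± 0.15. HPN-AS1 also fell with CPI203 in parental A375, to 2.39 and 3.19 FPKM. ARHGAP5-AS1, beside the gene of a GTPase-activating protein, stood at 4.60 and 5.02 FPKM in clone 1 and 4.67 and 3.93 FPKM in clone 4, against 12.5 and 11.98 FPKM in parental cells. Its changes were −1.19 ± 0.11 and −1.33 ± 0.11, whereas ARHGAP5, with 304 overlapping exon bases, did not pass in either clone. FLI1-AS1 was higher with FLI1, an ETS-family transcription factor, by 0.80 and 2.05 in clone 1 and by 1.18 and 1.99 in clone 4, and the pair shares 162 exon bases.

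In tolerant NOMO-1 with DMSO 99 of 163 AS1 genes differed from parental NOMO-1 (38 higher, 61 lower), 60.7% beside 64.4% of all genes (28.2% higher, 36.2% lower), and in 32 a mean of 1 FPKM was reached in the higher group alone. After quantile normalization 52.6% of those called were higher, against 38.4% without it. NR2F1-AS1, beside the gene of an orphan nuclear receptor with 158 overlapping exon bases, stood at 6.94 and 6.87 FPKM in tolerant cells and was listed at 0 in both parental libraries, as was NR2F1, at 17.3 and 16.5 FPKM in tolerant cells. C20orf166-AS1 stood at 8.80 and 7.29 FPKM in tolerant cells, against 0.502 and 0.443 FPKM in parental cells, and was higher by 2.61 ± 0.14. DLX6-AS1 (−3.73 ± 0.11), PCED1B-AS1 (−3.39 ± 0.26), ITGB2-AS1 (−2.88 ± 0.10) and MEF2C-AS1 (−2.75 ± 0.10) were lowest relative to parental cells, together with DLX6 (−4.02), ITGB2 (−1.87) and MEF2C (−2.38), a myeloid and muscle transcription factor. DLX6-AS1 reached 1 FPKM in the 4 parental NOMO-1 libraries alone, and ITGB2-AS1 in the 2 parental DMSO libraries alone. Both thus passed the filter through the cells in which they are high. NR2F1-AS1 and C20orf166-AS1 were in turn below 1 FPKM in both parental DMSO libraries. MEF2C-AS1, with 422 exon bases shared with MEF2C, stood at 1.26 and 1.11 FPKM in tolerant cells, against 13.4 and 13.9 FPKM in parental cells. BZRAP1-AS1 and BZRAP1 went apart here too, with BZRAP1-AS1 at 11.8 and 11.8 FPKM in tolerant cells, against 27.7 and 28.2 FPKM, and BZRAP1 at 86.0 and 86.0 FPKM, against 15.6 and 15.9 FPKM.

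Untreated cells of the clones, taken at 0 h, differed from untreated parental A375 in more AS1 genes than cells in DMSO: 70 of 142 in clone 1 (19 higher, 51 lower; 49.3% beside 48.1% of all genes, 17.1% higher and 31% lower) and 72 in clone 4 (22 higher, 50 lower; 50.7% beside 51.1%, 20.7% higher and 30.4% lower). Without parental untreated replicate 1 the count in clone 1 was 46. Quantile normalization moved the share of higher ones to 49.2% in clone 1 and 47.0% in clone 4, against 27.1% and 30.6%, and the median of all genes to 0.03 and 0.05, against −0.12 and −0.08. In clone 1, 21 AS1 genes passed both untreated and in DMSO, 19 in the same direction (90.5% beside 95.4% of all genes that passed in both), and in clone 4, 26, of which 25 in the same direction (96.2% beside 96.3%). BOLA3-AS1 was higher in DMSO and lower untreated in both clones.

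The AS1 genes of the untreated clones differed from untreated parental cells in the direction in which CPI203 moved parental cells, a pair of comparisons that share no library. In clone 1, 34 AS1 genes passed in both, which is 65.4% of the CPI203 calls and 48.6% of the clone calls, and all 34 had the same direction (8 higher, 26 lower). In clone 4, 34 passed in both, which is 65.4% of the CPI203 calls and 47.2% of the clone calls. Of these, 33 had the same direction (7 higher, 26 lower), with PITPNA-AS1 as the exception (0.54 in untreated clone 4, −0.48 with CPI203). All genes of the table showed this as well. For clone 1, 4125 passed in both (67% of the CPI203 calls and 50.7% of the clone calls), 89.1% in the same direction. For clone 4, 4227 passed in both (68.6% and 48.9%), 88.0% in the same direction. The share of calls that overlapped was thus close to that of all genes. After quantile normalization 25 of 26 and 27 of 29 AS1 genes had the same direction. H1FX-AS1 stood at 0.117 and 0.338 FPKM in untreated clone 1 and 0.0685 and 0.0749 FPKM in untreated clone 4, against 1.69 and 1.67 FPKM in untreated parental cells, next to 0.140 and 0.288 FPKM in parental cells with CPI203.

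CD27-AS1 stood at 8.43 and 8.14 FPKM in untreated clone 1 and 7.80 and 7.42 FPKM in untreated clone 4, against 18.3 and 17.4 FPKM in untreated parental cells. In DMSO the clones were much closer to parental cells, with CD27-AS1 at 14.3 and 15.8 FPKM in clone 1 and 21.3 and 15.6 FPKM in clone 4, against 18.4 and 14.8 FPKM in parental cells. NDUFA6-AS1 stood at 3.53 and 4.05 FPKM in untreated clone 1 and 3.08 and 3.09 FPKM in untreated clone 4, against 1.48 and 1.44 FPKM in untreated parental cells. SBF2-AS1 was an exception, at 2.54 and 2.54 FPKM and 3.81 and 3.10 FPKM in untreated clones 1 and 4, against 3.65 and 2.83 FPKM, with no call. How the clones were kept before the 0 h harvest was not found in the labels used here.

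**Figure D5:**
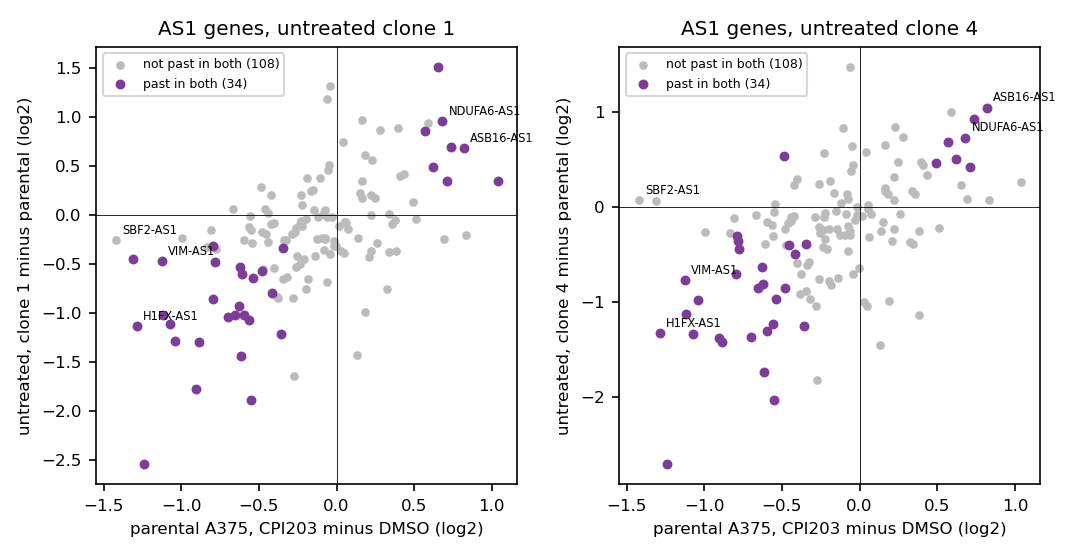
Difference of each of the 142 AS1 genes between untreated clone and untreated parental A375 (vertical axis) against the change with CPI203 in parental A375 (horizontal axis), in log2(FPKM + 1), for clone 1 (left) and clone 4 (right). Purple points passed in both (34 in each panel) and lie at the lower left and upper right, with 1 exception in clone 4, PITPNA-AS1.

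The effect of CPI203 differed between tolerant and parental A375 cells for few AS1 genes, as for few of all genes. In the main fit the AS1 shares lay below those of all genes in both A375 clones and in NOMO-1. The counts are small in A375 and moved with the settings in both lines, so this is not read as a trait of AS1 genes. The counts of the 2 lines are not compared. For clone 1 the difference passed for 0 of 142 AS1 genes in limma (14 at an unadjusted p below 0.05, and 1 past the threshold without the 3 libraries that stand apart), beside 1.91% of all genes (1.39% higher, 0.52% lower), and for clone 4 it passed for 1, TSPEAR-AS1, beside 2.29% (1.59% higher, 0.697% lower). TSPEAR-AS1 stood at 0.249 and 0.106 FPKM with CPI203 in clone 4, against 0.265 and 0.244 FPKM with DMSO, and at 1.19 and 1.04 FPKM with CPI203 in parental cells, against 0.353 and 0.329 FPKM, a difference of −0.75 ± 0.16 (adjusted p = 0.0318) that did not pass in 7 of 8 fits without 1 library, nor without the 3 libraries that stand apart. For NOMO-1 the effect was higher in tolerant cells for 25 AS1 genes and lower for 18. The difference thus passed for 43 of 163, which is 26.4% beside 31.8% of all genes (16.9% higher, 14.9% lower). The count was 28 without parental CPI203 replicate 2 and 25 without tolerant DMSO replicate 2. ITGB2-AS1 (2.27), VIM-AS1 (1.82) and CEBPA-AS1 (1.71) had the most positive differences, and each fell in parental but not in tolerant cells. ITGB2-AS1 passed the filter through the 2 parental DMSO libraries alone. It stayed below 1 FPKM in tolerant cells, where a fall can hardly be seen. DLX6-AS1 (−2.96), SOCS2-AS1 (−2.04) and MAP3K14-AS1 (−1.22) had the most negative differences, and DLX6-AS1 was close to 0 FPKM in tolerant cells.

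The promoter windows of the AS1 genes held more CpG dinucleotides and GC boxes than the windows of all genes, as did those of their sense genes. RefSeq (GRCh38.p14) held a window for 117 of the 197 AS1 symbols and for 156 sense genes, 143 and 266 windows in all, and in 29 of the 106 pairs with both the windows share bases. A GC box, GGGCGG or CCGCCC, was present in 57.3% of AS1 windows, 60.2% of sense windows and 44.95% of all 35116 windows. The TATA letters TATAAA or TTTATA were present in 4.90%, 7.52% and 11.5%, and the ETS core CCGGAA or TTCCGG in 27.3%, 19.2% and 17.2%. The E-box CACGTG was present in 8.39%, 8.27% and 7.26%, and TGACG or CGTCA, the core of the cAMP response element, in 34.3%, 27.4% and 24.6%. The median window held 22 CpG dinucleotides in AS1 genes, 24 in sense genes and 14 in all genes. A match is a stretch of letters in the window and not a shown binding site, and overlapping windows of head to head pairs count in both groups. The AS1 genes were chosen by their level, whereas the windows of all genes were taken whether or not the gene was expressed. Windows of expressed genes alone were not set beside them.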

How the data were processed

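RNA sequencing libraries of A375 and NOMO-1 cells were used, 26 in 13 groups of 2, and the groups follow the sample titles. TopHat 1.4.1, Cufflinks and hg19 are named per the submitters' processing notes; version and options of Cufflinks and the annotation release are not given in those sources. The deposited table gives 1 FPKM value a gene and library with hg19 coordinates, and no read counts, so the depth is unknown and no counting error could be given. FPKM summed to 501933 to 637916 in A375 libraries and 417391 to 488682 in NOMO-1 libraries. For 36 genes, 1 of them an AS1 gene, NOMO-1 values are missing, and these were left out of the NOMO-1 fit.

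The members, lists and tests were chosen with earlier results of these data known. Levels were put on the log2(FPKM + 1) scale and genes that reached 1 FPKM in 2 or more libraries of a line entered a limma model (limma 3.58.1, R 4.3.3; a mean per group, trend and robust options), with separate fits for the 18 A375 libraries and the 8 NOMO-1 libraries (9 and 4 residual degrees of freedom). Tests are two-sided, with Benjamini-Hochberg adjustment across every gene tested in a comparison and a threshold of 0.05. For pairs, the AS1 minus sense difference of each library was fitted in the same way, together with the differences of all neighbouring gene pairs. The adjustment ran over the AS1 pairs and the neighbouring pairs together, 16920 in A375 and 16741 in NOMO-1. Pairs were sorted by strand, start and exon overlap in GENCODE release 29 by Ensembl identifier, and coordinates printed for genes are those of the deposited table. Promoter windows are from RefSeq (GRCh38.p14), matched by symbol.

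Genes were named by rule: the largest called rises and falls of each comparison, up to 4 each, without overlap of libraries and with a mean of 1 FPKM in the higher group. The rule also names every gene called in a difference of effects, the 5 highest levels of each line, genes called in all 3 A375 populations or in both lines, and pairs called in opposite directions. Of the 104 genes it names the text gives values for a part, and some are not reported here. Outside it stand LIFR-AS1, MED14-AS1, CRYM-AS1, ACVR2B-AS1, DHRS4-AS1, HOXB-AS1 and HOXC-AS1, and which promoter windows to print was chosen after values were seen. Replicate numbers were checked as pairs: deviations of same-numbered libraries correlated between −0.73 and 0.72, so they were not treated as paired. Alternatives were no filter, quantile normalization, a pseudocount of 0.1, median-ratio scaling, a replicate block, a filter at 5 FPKM, the trend and robust options turned off, the compared libraries alone, an absence of the 3 libraries that stand apart, and each library left out in turn. A length and GC correction and a fit without the 4 untreated clone libraries were added after the data were seen. The scripts were tested on simulated data.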

Additional observations from a re-analysis of the deposited data

Results flagged for a closer look

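The effect of CPI203 (CPI203 minus DMSO, log2(FPKM + 1)) differed between the tolerant cells and their parental cells for 44 AS1 genes by the limma test of that difference, adjusted over all genes. No explanation was tested for any of them. The values below are the effect in tolerant cells minus the effect in parental cells.

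In NOMO-1, 18 AS1 genes had a lower effect in tolerant cells. DLX6-AS1 differed by −2.96 and SOCS2-AS1 by −2.04. MAP3K14-AS1 differed by −1.22, SAP30L-AS1 by −1.13 and RASSF8-AS1 by −1.02. BAIAP2-AS1, which fell with CPI203 in tolerant cells (0.93 on the log2 scale), differed by −0.91. RHPN1-AS1 differed by −0.85, MYB-AS1 by −0.76, BOLA3-AS1 by −0.72, NADK2-AS1 by −0.67, USP2-AS1 by −0.66 and KIAA1984-AS1 by −0.65. The smallest differences of this direction were those of OSER1-AS1 with −0.60, CBR3-AS1 with −0.53, TP73-AS1 with −0.46, PAXBP1-AS1 with −0.45 and ZBED3-AS1 with −0.44.

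In NOMO-1, 25 AS1 genes had a higher effect in tolerant cells. ITGB2-AS1 differed by 2.27, VIM-AS1 by 1.82, CEBPA-AS1 by 1.71 and EPHA1-AS1 by 1.61. BZRAP1-AS1 differed by 1.29, PRKAG2-AS1 by 1.20, LY86-AS1 by 1.12, ZEB2-AS1 by 1.10, TPRG1-AS1 by 1.04 and TMEM161B-AS1 by 1.01. VPS9D1-AS1 differed by 0.98, C20orf166-AS1 by 0.95, PDCD4-AS1 by 0.87 and PAN3-AS1 by 0.78. Smaller differences were those of PITPNA-AS1 with 0.59, FOXN3-AS1 with 0.56, PTPRG-AS1 with 0.55, RAB30-AS1 with 0.51, EPB41L4A-AS1 with 0.51, FBXL19-AS1 with 0.50, MEF2C-AS1 with 0.48, RSBN1L-AS1 with 0.46, NUTM2A-AS1 with 0.44 and C17orf76-AS1 with 0.40. LY86-AS1, beside the gene of a lymphocyte antigen, stood at 0.0679 and 0.149 FPKM with CPI203 in parental NOMO-1, against 1.52 and 1.49 FPKM with DMSO. In tolerant cells it stood at 0 and 0 FPKM with CPI203, against 0.0589 and 0.0278 FPKM. LY86-AS1 and ITGB2-AS1 passed the filter through the 2 parental DMSO libraries alone, and had little level to lose in tolerant cells. Other genes of the 2 lists also passed through few libraries. Among them PRKAG2-AS1, MYB-AS1 and NADK2-AS1 each reached 1 FPKM in 2 libraries alone, both of NOMO-1. ZEB2-AS1, beside the gene of a zinc finger repressor, stood at 1.61 and 1.60 FPKM with CPI203 in tolerant cells, against 1.68 and 2.19 FPKM with DMSO, and at 0.807 and 0.305 FPKM in parental cells, against 2.83 and 2.54 FPKM.

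In A375, TSPEAR-AS1 was the 1 AS1 gene whose effect differed, by −0.75 in clone 4.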

How the results depend on the processing

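The direction of single genes was kept in 374 results, those called in the main fit for named genes outside the untreated comparisons. Over 5090 alternatives, 4183 still passed, 907 no longer passed and 0 reversed. Of the 374, 85 passed under every alternative run, where a gene that a filter removed has no result under that filter. The split of counts into higher and lower did move under some alternatives, as given with the counts. Of 184 alternatives for counts other than leaving out 1 library, 138 stayed within 1.5 times the count reported, and of 84 that left out 1 library, 60 did. The filter and the libraries that share the estimate of spread moved the counts most, and the cause was not tested.

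With a filter at 5 FPKM, which tests fewer genes, the counts of AS1 genes were 20 in clone 1, 21 in clone 4, 26 in parental A375, 49 in tolerant and 54 in parental NOMO-1 for CPI203. They were 12 and 15 for clones 1 and 4 with DMSO, 29 and 29 for the untreated clones, 49 for tolerant NOMO-1 with DMSO and 22 for the NOMO-1 difference of effects. The pairs whose changes differ numbered 12, 10, 12, 32 and 40 in clone 1, clone 4, parental A375, tolerant and parental NOMO-1. With no filter the counts were 0, 0, 3, 8 and 38 for CPI203 in the same order (limma; the count at an unadjusted p below 0.05 was 60 in clone 1 and 48 in clone 4 with the filter), 4 and 6 for the clones with DMSO, 26 and 28 untreated, 49 for tolerant NOMO-1 with DMSO, 0 and 7 for the clone 4 and NOMO-1 differences of effects, and 1, 0, 3, 15 and 46 for pairs. With the compared libraries alone they were 11 and 7 for clones 1 and 4 with DMSO, 0 for CPI203 in clone 4 and for its difference of effects, and 0 and 24 for pairs in clone 4 and parental A375. Without the 3 libraries that stand apart, CPI203 in clone 1 gave 60 AS1 genes and 50 pairs, and the differences of effects 1 in clone 1 and 0 in clone 4. Chosen after seeing the data, the length and GC correction gave 1 and 3 for the differences of effects in clones 1 and 4, and the fit without the 4 untreated clone libraries gave 0 in clone 4.

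Leaving out 1 library gave 17 to 19, 17 to 40, 37 to 51, 47 to 59 and 73 to 90 AS1 genes for CPI203 in clone 1, clone 4, parental A375, tolerant and parental NOMO-1. It gave 16 to 29 and 25 to 38 for clones 1 and 4 with DMSO, 46 to 60 and 53 to 60 untreated, 76 to 92 for tolerant NOMO-1 with DMSO, and 0 to 0, 0 to 1 and 25 to 50 for the differences of effects in clone 1, clone 4 and NOMO-1. For pairs it gave 11 to 14, 11 to 34, 27 to 43, 38 to 50 and 67 to 87. With the replicate number as a block, CPI203 gave 33, 33, 52, 91 and 101 AS1 genes, and no count moved by over 1.5 times. The labels do not say that a number marks a shared day, and the deviations of same-numbered libraries correlated in some comparisons and not in others (−0.73 to 0.72).

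Read depth is not in the files, so the precision of low FPKM values is unknown, and AS1 genes near 1 FPKM rest on the spread of 2 libraries a group.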
